A study of Rattus norvegicus with 21 samples.

Results

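The gap in gene expression between blood-derived macrophages and microglia sorted from the injured rat brain was compared between 2 sets of libraries, as the macrophage-minus-microglia difference in the 7D set minus the same difference in the 24h set (the interaction). It rests on 14 of the 21 libraries: 7D macrophages (7D_MO, n = 4), 24h macrophages (24h_MO, n = 3), 7D microglia (7D_Mg, n = 4) and 24h microglia (24h_Mg, n = 3). The other 7 libraries, sham microglia of the 7D set (7D_SH, n = 4) and of the 24h set (24h_SH, n = 3), cancel out of the interaction and were used to say which cell group had moved. Groups were taken from the sample titles. A total of 14252 of 30404 transcripts passed the filter on low counts and were tested.

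All animals were adult rats of a strain given as Winstar. The 4 groups after stroke came from rats whose middle cerebral artery was blocked for 90 min with a nylon filament and then reopened (MCAO). Sham animals had the carotid artery exposed and its external branch tied, and their treatment field names a PBS injection. Brains were perfused and the side of the injury was taken. The gates per the labels' protocols were CD11b+ with high CD45 for blood-derived macrophages and CD11b+ with low CD45 for microglia, so a cell is assigned by its surface CD45 and not by its origin. The sham cells are microglia, and no macrophages from sham brains were analysed here.

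The labels limit what the groups can stand for. The treatment field reads 24 h for all 21 libraries, so the 7-day time of the 7D set is known from its titles alone. The 4 libraries titled as 7D macrophages are described as microglia in both their source name and their cell fraction field. In the 24h set, the cell fraction fields of macrophage replicate 3 and microglia replicate 3 are the reverse of their titles. Set and time go together and cannot be told apart in any comparison between the 2 sets. Differences between cell types and levels relative to sham were formed within a set. The interaction and the changes relative to sham compare these between the sets, so the same limit holds for them. The protocol calls the replicates biological but does not tie libraries to animals, and the p-values reflect how far these libraries varied.

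Microglia are the resident macrophages of the brain and settle there before birth. After an ischaemic stroke monocytes enter the injured tissue from the blood and become macrophages, which in the brain are known to lose part of their monocyte programme and to take on features shared with activated microglia as they clear debris. Whether the 2 populations become more alike with time is the question behind the interaction, in which time cannot be told apart from set.

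The files list transcripts by Ensembl identifier and do not pair them with gene names, and 0 of the 30404 identifiers were found among the 47357 rat genes of the reference table. Microglia and macrophage marker genes could therefore not be looked up, and the cell labels could not be checked against them. Results are given as groups of transcripts, with 4 transcripts shown by identifier and the only 2 named genes, Chi3l1 and Nos2. Total expected counts were 11115359 to 15401910 per library in the 7D set and 6923630 to 9668961 in the 24h set.

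Macrophages and microglia differed far less in the 7D set. At an adjusted p under 0.05, called here and below (edgeR quasi-likelihood test, Benjamini-Hochberg adjustment over all transcripts), 2044 of 14252 transcripts differed between the cell types in the 7D set (14.3%) and 6015 in the 24h set (42.2%). Macrophages had the higher level for 1272 in the 7D set (8.93%) and microglia for 772 (5.42%). In the 24h set this held for 3027 (21.2%) and 2988 (21.0%). Differences of at least 2-fold among these calls were lopsided in the 7D set, with 612 toward macrophages (4.29%) and 104 toward microglia (0.730%), against 1243 (8.72%) and 1519 (10.7%) in the 24h set. The median standard error of a log2 difference was 0.17 in the 7D set and 0.20 in the 24h set. Both come from 1 fit with a shared estimate of the spread, so they do not measure the spread within each set. With each set fitted alone, 1471 of 13384 transcripts were called in the 7D set and 6382 of 13081 in the 24h set.

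The number of microglia-higher calls in the 7D set moved with single libraries. It was 436 without 7D microglia replicate 4, 468 without 7D macrophage replicate 2 and 1226 without 7D sham replicate 3, which is in neither of the 2 groups. Libraries of 7D macrophages and 7D microglia with the same number deviated together, and with the replicate number as a block on the 14 libraries the 7D calls numbered 2025 toward macrophages and 1735 toward microglia. Without both 24h libraries whose label fields disagree, 1989 transcripts were higher in 24h microglia.

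The interaction itself was called for 2843 of 14252 transcripts (19.9%), of which 1612 were more positive (11.3%) and 1231 more negative (8.64%). A positive value means that the macrophage level moved up against the microglia level. Of the 2843, 2541 (89.4%) were transcripts whose 24h difference was smaller in the 7D set. Another 134 (4.71%) had a difference that appeared in the 7D set, 61 (2.15%) were called in opposite directions in the 2 sets, and 17 (0.598%) widened. The remaining 90 had no call in either set (88) or were undecided (2). Without 24h microglia replicate 2 the more negative calls were 815, and with the replicate block on the 14 libraries they were 2123. Without both 24h libraries whose label fields disagree 1008 were more positive and 626 more negative. When those 2 libraries exchanged groups, as their cell fraction fields have them, edgeR called 0 interactions and 0 differences in the 24h set, with 819 and 243 transcripts at an unadjusted p under 0.05. The comparison thus depends on the titles of those libraries. Grouped by title, the log2 CPM of the 24h macrophage libraries correlated at 0.95 to 0.96 among themselves and at 0.85 to 0.91 with the 24h microglia libraries, and the 24h microglia libraries at 0.95 among themselves (across transcripts). The libraries with disagreeing fields thus resembled the others of their title.

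**Figure D1:**
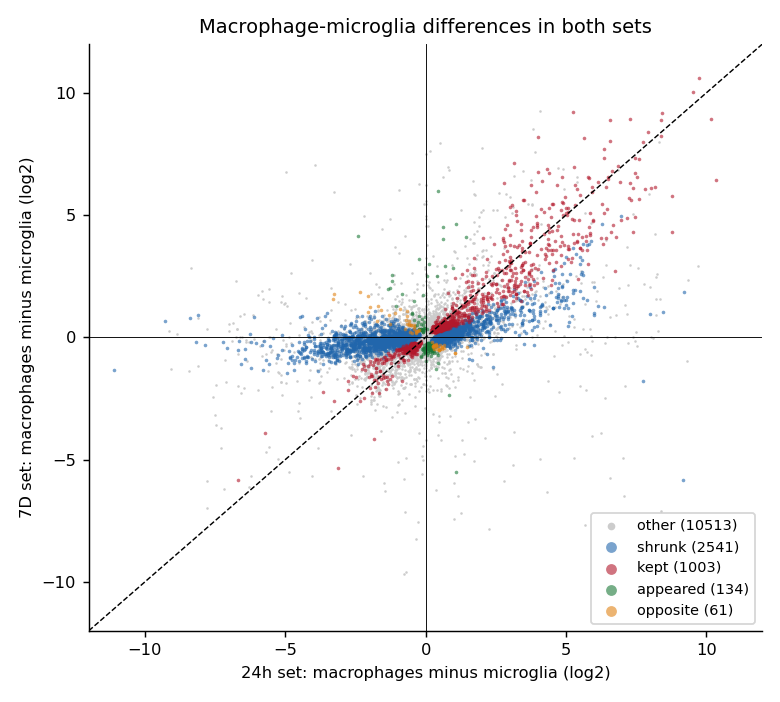
Macrophage-minus-microglia log2 difference of each of 14252 transcripts in the 24h set (horizontal axis) and the 7D set (vertical axis), with the dashed line at equal values. Shrunk transcripts (2541) lie along the horizontal axis, kept ones (1003) near the dashed line and mostly on the macrophage side, appeared ones (134) near the vertical axis, and opposite ones (61) in the quadrants where the 2 differences have unlike signs.

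The shrinking was lopsided between the 2 directions. Of the 3027 transcripts higher in macrophages in the 24h set, 998 (33.0%) were also called higher in the 7D set, and the median log2 difference over the 3027 was 0.27 in the 7D set and 0.77 in the 24h set. Of the 2988 transcripts higher in microglia in the 24h set, 383 (12.8%) were also called in the 7D set, and their median was -0.19 in the 7D set and -1.02 in the 24h set, or -1.0 with the 50 transcripts that were at 0 in every library of a 24h group put at the limit of 3 counts per library. Choosing transcripts on their 24h values by itself tends to give smaller 7D values. Picked the other way, the 1272 transcripts higher in 7D macrophages had a median of 0.92 in the 7D set and 1.21 in the 24h set (0.89 and 1.19 with transcripts at 0 put at the limit). The 772 higher in 7D microglia had a median of -0.48 in the 7D set and -0.35 in the 24h set. A macrophage excess was thus the larger one in the 24h set under either choice, and for a microglia excess the order followed the set on which transcripts were picked.

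The 2 sets still shared part of their pattern. Across the 14252 transcripts the log2 differences in the 2 sets, which share none of their libraries, had a correlation of 0.53 and a slope of 0.36 (7D on 24h), a description over transcripts, which are not independent replicates. In each range of 24h differences beyond 0.5 log2 units in either direction, the median 7D difference was the smaller one. Transcripts between 2 and 3 log2 units higher in 24h macrophages (n = 302) had a median of 1.11 in the 7D set and 2.42 in the 24h set. Those between 2 and 3 log2 units lower (n = 502) had a median of -0.38 in the 7D set and -2.37 in the 24h set.

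Each library was then placed on the 24h difference. Its position is the mean signed log2 CPM (CPM, counts scaled to a common library size, prior count 1) over the 6015 transcripts called in the 24h set, scaled so that the mean of 24h microglia is 0 and that of 24h macrophages is 1. The calls rest on the 24h difference, while the 7D libraries entered through the filter, the scaling and the shared estimate of the spread; with each set fitted alone the mean positions were again 0.37 for 7D macrophages and 0.04 for 7D microglia. Positions are levels and not relative to sham, and set and time cannot be told apart in them either. The 7D macrophages lay at 0.35, 0.42, 0.32 and 0.38 and the 24h macrophages at 1.07, 0.86 and 1.07. The 7D microglia lay at 0.06, 0.05, 0.03 and 0.01 and the 24h microglia at 0.11, -0.08 and -0.03. No 7D macrophage library reached the range of the 24h macrophages, and all 4 stayed above every microglia library of both sets. Sham libraries were below all MCAO libraries, at -0.16 to -0.12 in the 7D set and -0.23 to -0.21 in the 24h set. The 24h libraries chose the transcripts and set the scale, which by itself tends to place 7D macrophages short of 1.

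**Figure D2:**
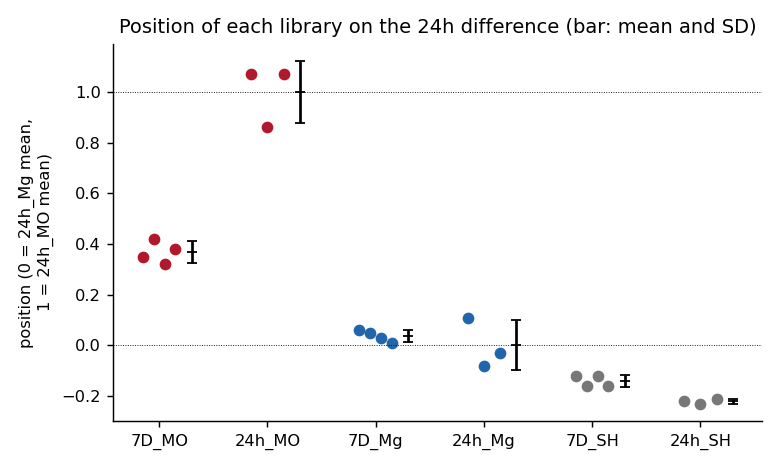
Position of each of the 21 libraries on the 24h macrophage-microglia difference (vertical axis, no unit; 0 is the mean of 24h_Mg and 1 that of 24h_MO), with points for libraries and bars for mean and SD of the group. The 7D macrophages lie at 0.32 to 0.42, between the 24h macrophages and all microglia.

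The position had a different size on the 2 sides of the difference. Over transcripts higher in 24h macrophages the 7D macrophages averaged 0.46 ± 0.07 (SD, n = 4) and the 7D microglia -0.01 ± 0.04 (n = 4). Over transcripts higher in 24h microglia the 7D macrophages averaged 0.27 ± 0.03 and the 7D microglia 0.09 ± 0.02 (n = 4 each). The libraries titled 7D macrophages thus lay nearer to microglia over transcripts that were low in 24h macrophages than over those that were high in them, a difference that was not tested.

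Which cell group had moved was asked with the change of each relative to sham of its own set. The macrophage change, (7D_MO minus 7D_SH) minus (24h_MO minus 24h_SH), was called for 3560 transcripts (25.0%), 1764 more positive (12.4%) and 1796 more negative (12.6%). The microglia change, formed in the same way, was called for 310 (2.18%), 67 more positive (0.470%) and 243 more negative (1.71%). At an unadjusted p under 0.05 there were 5072 macrophage changes and 2156 microglia changes. At least 2-fold, called or not, were 3541 and 2079, and the median absolute log2 change was 0.44 and 0.26. The called counts thus differ by more than the sizes of the changes do. The median standard error was 0.27 on the log2 scale for both, from the same fit with its shared estimate of the spread. The interaction equals the macrophage change minus the microglia change, and both use the same sham libraries. The microglia count was the less stable one, with 310 more positive without 7D sham replicate 3 and 135 with the replicate block. It was 42 more positive without 24h microglia replicate 1, and 43 more positive and 156 more negative without 24h sham replicate 1. DESeq2 called 206 and 484.

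Among the 2843 interaction calls, the macrophage change was itself called in the direction of the interaction for 2075 (73.0%), and the microglia change in the direction that gives the interaction for 68 (2.39%). The macrophage change was the larger of the 2 for 2465 of them (86.7%), and for 60.5% of the 11409 transcripts with no interaction call. The interaction call uses both changes, so the values for the 2843 partly restate the choice. In bulk libraries such as these, fewer cells of one type in a sorted sample and less RNA per cell cannot be told apart.

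The first group of shrunk differences comprised 1060 transcripts (7.44% of those tested) that were higher in macrophages in the 24h set. Their mean log2 level over sham of the same set was 0.76, 0.90, 0.70 and 0.84 in the 7D macrophages and 1.96, 1.73 and 2.01 in the 24h macrophages. It was 0.52, 0.51, 0.43 and 0.41 in the 7D microglia and 0.59, 0.31 and 0.44 in the 24h microglia. The macrophage libraries of the 2 sets did not overlap, while the microglia libraries did. A macrophage change that closes the gap was called for 780 of the 1060 (73.6%; 12.6% of all tested were more negative). A microglia change that closes it was called for 12 (1.13%; 0.470% of all tested were more positive). The opposite microglia change was called for 18 of the 1060, where 1.71% of all tested were more negative. The interaction that chose the 1060 contains these changes, so the shares and the parting of macrophage libraries partly restate the choice. The median changes were -0.76 for macrophages and 0.03 for microglia on the log2 scale. Against sham, 721 of the 1060 were called higher in 7D macrophages (29.8% of all tested transcripts were) and 985 in 24h macrophages (33.3% of all tested). For microglia these were 585 in the 7D set (24.1% of all tested) and 468 in the 24h set (21.7% of all tested). The 7D difference was still called for 251 of the 1060, where 8.93% of all tested transcripts were called higher in 7D macrophages. Called or not and in either direction, 131 of the 1060 differed at least 2-fold in the 7D set, against 1558 of all 14252 tested. Without both 24h libraries whose label fields disagree, 554 transcripts were in this group.

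The second group comprised 1481 transcripts (10.4%) that were higher in microglia in the 24h set. Their mean level relative to sham was -0.52, -0.51, -0.46 and -0.46 in the 7D macrophages and -2.11, -1.58 and -2.13 in the 24h macrophages. It was -0.39, -0.35, -0.30 and -0.35 in the 7D microglia and -0.43, -0.11 and -0.20 in the 24h microglia. Here too the macrophage libraries of the sets were apart and the microglia libraries overlapped. The overlap rested on 24h microglia replicate 1, as the other 24h microglia libraries lay above all 7D microglia libraries. A macrophage change toward microglia was called for 1182 (79.8%; 12.4% of all tested were more positive). A microglia change toward macrophages was called for 26 (1.76%; 1.71% of all tested were more negative). The opposite microglia change was called for 8 of the 1481, where 0.470% of all tested were more positive. Median changes were 1.13 for macrophages and -0.05 for microglia. The shares and the parting of macrophage libraries again partly restate the choice. Against sham, 814 of the 1481 were called lower in 7D macrophages (28.5% of all tested transcripts were) and 236 higher, while 1307 were lower in 24h macrophages (31.0% of all tested) and 40 higher. Microglia were lower than sham for 693 in the 7D set (24.1% of all tested) and 536 in the 24h set (17.7% of all tested). The 7D difference was still called for 110 of the 1481, where 5.42% of all tested transcripts were called higher in 7D microglia. Called or not and in either direction, 17 of the 1481 differed at least 2-fold in the 7D set, against 1558 of all 14252 tested. Without the 2 libraries whose label fields disagree, 936 were in this group. In 23 of them all 3 libraries of the 24h macrophages were at 0, which moved the median macrophage change to 1.12 when these were put at the limit of 3 counts per library.

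**Figure D3:**
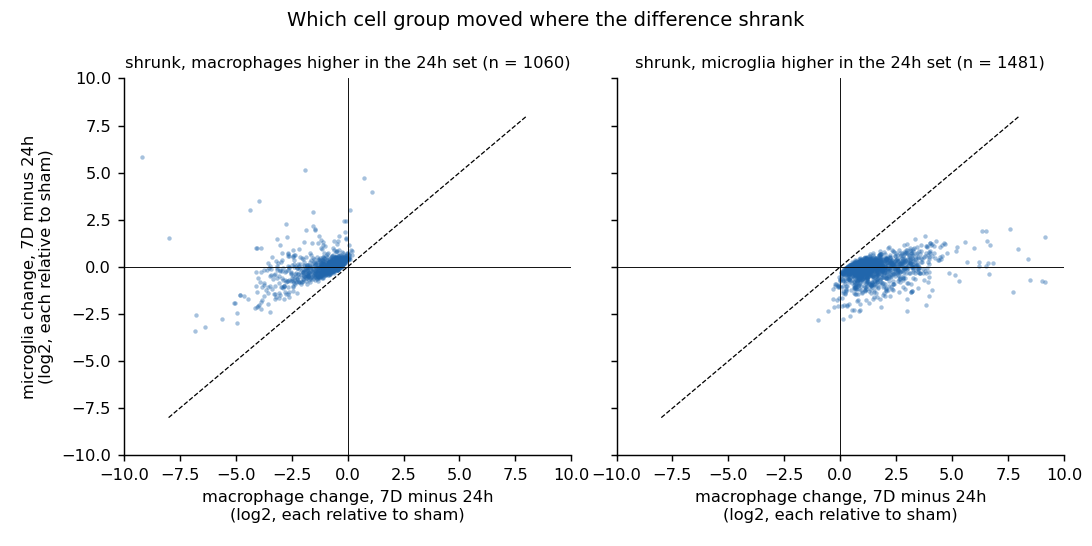
Change of macrophages (horizontal axis) and of microglia (vertical axis) from the 24h to the 7D set, each relative to sham of its own set and on the log2 scale, for the 1060 and 1481 shrunk transcripts, 1 point each, with the dashed line at equal change. Most points spread along the horizontal axis, to the left where macrophages were higher in the 24h set and to the right where microglia were, and the median microglia changes are 0.03 and -0.05.

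The 2 transcripts shown for this class are those with the largest interaction in each direction that reached 3 or more in mean log2 CPM and whose cell types did not overlap in the 24h set. ENSRNOT00000012494 (length 1182 nt) was at 22.4, 40.2, 33.3 and 38.6 CPM in the 7D macrophages and 382, 354 and 520 CPM in the 24h macrophages. It was at 8.94, 17.4, 17.3 and 11.5 CPM in the 7D microglia and 6.89, 4.86 and 5.97 CPM in the 24h microglia. Sham libraries held 2.99 to 5.52 CPM in the 7D set and 2.64 to 4.56 CPM in the 24h set. All macrophage libraries were above the microglia libraries of their set, but the gap was 2.44-fold in the 7D set and 70.6-fold in the 24h set. The interaction was -4.85 ± 0.37 on the log2 scale (SE, edgeR adjusted p = 7.5e-07). The macrophage change was -3.86 ± 0.40 (edgeR adjusted p = 3.7e-06), and the microglia change of 0.99 ± 0.43 was not called (edgeR adjusted p = 0.28).

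ENSRNOT00000005476 (length 3096 nt) was at 4.86, 6.11, 1.59 and 6.33 CPM in the 7D macrophages and at 0 in all 3 libraries of the 24h macrophages, where 3 counts would be 0.319 to 0.341 CPM. It was at 10.6, 18.0, 10.0 and 9.53 CPM in the 7D microglia and 17.3, 23.6 and 33.8 CPM in the 24h microglia. Sham libraries were highest, at 35.8 to 39.0 CPM in the 7D set and 38.6 to 50.6 CPM in the 24h set. The macrophage mean was at least 14.4-fold higher in the 7D set, and the ratio of macrophages to microglia at least 29.8-fold higher (edgeR adjusted p = 2.5e-05 for the interaction). The microglia change, -0.75 ± 0.43 on the log2 scale, was not called (edgeR adjusted p = 0.45). In the 7D set macrophages remained below microglia, with no overlap (log2 difference -1.34 ± 0.31, edgeR adjusted p = 0.0083).

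**Figure D4:**
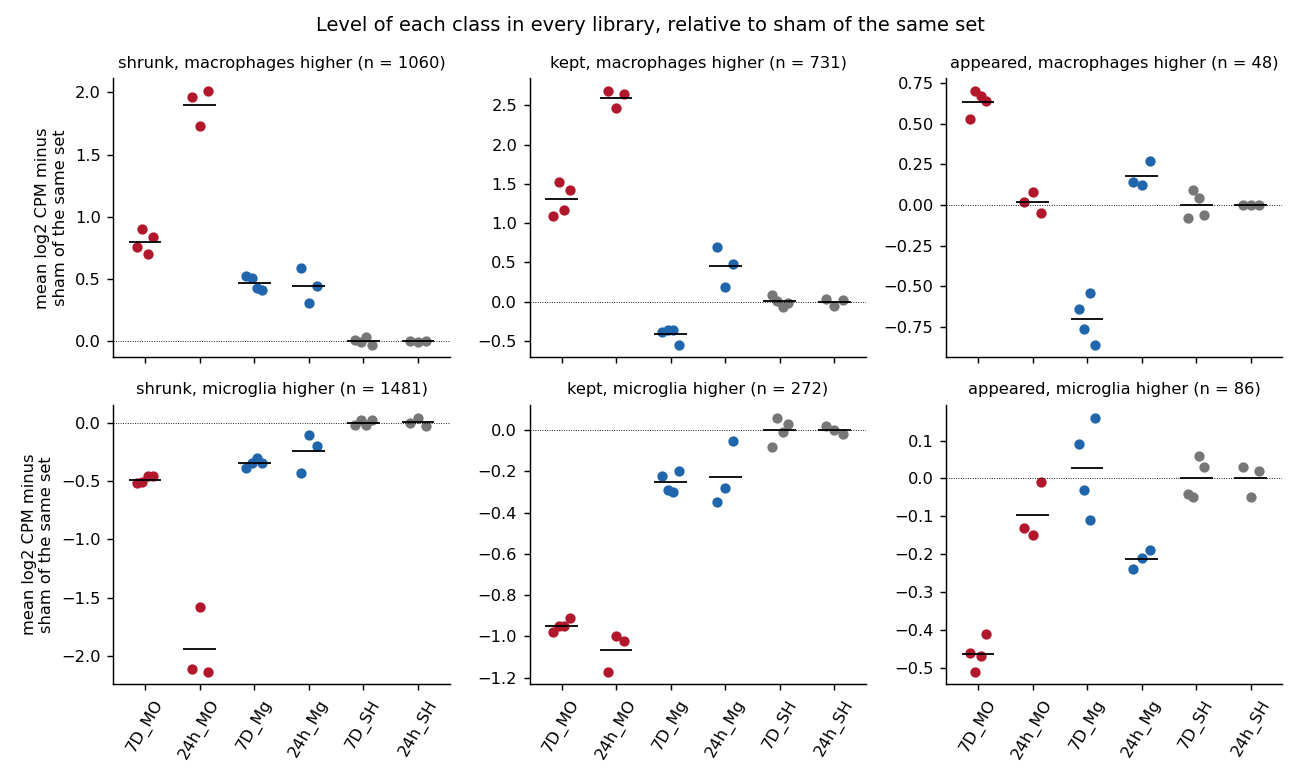
Mean log2 CPM of each class minus the mean of sham in the same set (vertical axes, scaled per panel), 1 point per library and a line at the group mean, for transcripts that shrank, were kept or appeared, with macrophages (top) or microglia (bottom) higher. In the shrunk classes the macrophage points of the sets part while the microglia points overlap, with microglia higher only through 24h microglia replicate 1. In kept transcripts with macrophages higher both cell types are lower in the 7D set.

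Differences called in the same direction in both sets, with no interaction call, numbered 1003 (7.04% of those tested), and a missing interaction call does not show that a difference stayed the same. Macrophages were the higher cell type in 731 (5.13%) and microglia in 272 (1.91%). For the 731 the median log2 difference was 1.20 in the 7D set and 1.49 in the 24h set, or 1.11 and 1.43 with transcripts at 0 in a whole group put at the limit. Their level over sham was 1.09, 1.52, 1.17 and 1.42 in the 7D macrophages and 2.68, 2.47 and 2.64 in the 24h macrophages. It was -0.39, -0.36, -0.36 and -0.55 in the 7D microglia and 0.69, 0.19 and 0.48 in the 24h microglia. Relative to sham of the same set, both cell types were lower in the 7D set. The median changes were -0.73 for macrophages and -0.60 for microglia. The 731 were chosen for having no interaction call, so the likeness of the 2 changes partly restates the choice. The 7D microglia were called below sham for 243 of the 731 and above it for 256, against 68 and 335 in the 24h microglia. Over all tested transcripts these shares were 24.1% below and 24.1% above sham in 7D microglia, and 17.7% below and 21.7% above in 24h microglia. Of the 243 transcripts in all that had a negative microglia change, 93 were in this group, which held 5.13% of all tested transcripts.

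The 272 transcripts that were higher in microglia in both sets differed less, with medians of -0.50 in the 7D set and -0.58 in the 24h set. Their level relative to sham was -0.98 to -0.91 in the 7D macrophages and -1.17 to -1.0 in the 24h macrophages, and -0.30 to -0.20 in the 7D microglia and -0.35 to -0.05 in the 24h microglia. Macrophages stood below microglia and sham in both sets. The number was 450 without 7D sham replicate 3 and 539 with the replicate block on the 14 libraries.

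Differences that appeared in the 7D set numbered 134 of 14252 (0.940%). In 48 macrophages were higher, with a median log2 difference of 0.80 in the 7D set and -0.13 in the 24h set. Over these, the 7D macrophages stood 0.53 to 0.70 above sham and the 24h macrophages -0.05 to 0.08, while the 7D microglia stood at -0.86 to -0.54 and the 24h microglia at 0.12 to 0.27. The 48 were chosen on these libraries for a gap that opens, so this parting of the cell types restates the choice. A macrophage change in the direction of the interaction was called for 20 of the 48 (41.7%; 12.4% of all tested were more positive) and a microglia change for 6 (12.5%; 1.71% of all tested were more negative). In the other 86 microglia were higher, with medians of -0.43 in the 7D set and 0.11 in the 24h set. A macrophage change was called for 25 of these (29.1%; 12.6% of all tested were more negative) and a microglia change for 4 (4.65%; 0.470% of all tested were more positive). The interaction call that chose both groups used these same changes, so nothing is read from the shares. These counts moved with single libraries: the 48 were 28 without 7D microglia replicate 4 and 30 without 7D macrophage replicate 2. The 86 were 38 and 49 without those libraries, 51 without 7D microglia replicate 1, 131 without 7D microglia replicate 3, 56 without 24h microglia replicate 2, 57 without 24h macrophage replicate 3 and 146 without 7D sham replicate 3. With the replicate block on the 14 libraries they were 118 and 252.

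ENSRNOT00000064705 (length 9363 nt), chosen by the same rule among transcripts that appeared, was at 9.87, 16.4, 11.3 and 10.3 CPM in the 7D macrophages and 14.1, 14.6 and 13.5 CPM in the 24h macrophages. The 7D microglia held 5.03, 3.70, 4.25 and 4.12 CPM and the 24h microglia 13.9, 21.7 and 21.0 CPM. The macrophage libraries of the sets overlapped, and the 7D microglia lay below all other MCAO libraries. The interaction was 1.90 ± 0.33 (SE, log2, edgeR adjusted p = 0.00052). Sham libraries held 4.52 to 10.3 CPM in the 7D set and 6.43 to 7.85 CPM in the 24h set. The interaction came with a called microglia change of -2.25 ± 0.34 (edgeR adjusted p = 0.0014) and a macrophage change of -0.35 ± 0.34 that was not called (edgeR adjusted p = 0.51), the reverse of the shrunk pair above.

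ENSRNOT00000055442 (length 1605 nt) was at 9.87, 11.7, 8.99 and 9.69 CPM in the 7D macrophages and 18.1, 15.9 and 21.6 CPM in the 24h macrophages. The 7D microglia held 16.0, 14.6, 13.2 and 18.6 CPM and the 24h microglia 14.4, 12.2 and 15.5 CPM. Sham libraries held 12.2 to 16.3 CPM in the 7D set and 11.8 to 16.2 CPM in the 24h set. The macrophage libraries of the sets did not overlap and the microglia libraries did. Its interaction of -1.04 ± 0.22 (SE, log2, edgeR adjusted p = 0.0021) came with a called macrophage change of -0.84 ± 0.22 (edgeR adjusted p = 0.0080). The 24h difference of 0.40 ± 0.16 was near the threshold (edgeR adjusted p = 0.055) and was called in 9 of 33 alternatives (adjusted p 0.025 to 1.0), among them without 24h macrophage replicate 2 and with the replicate block.

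**Figure D5:**
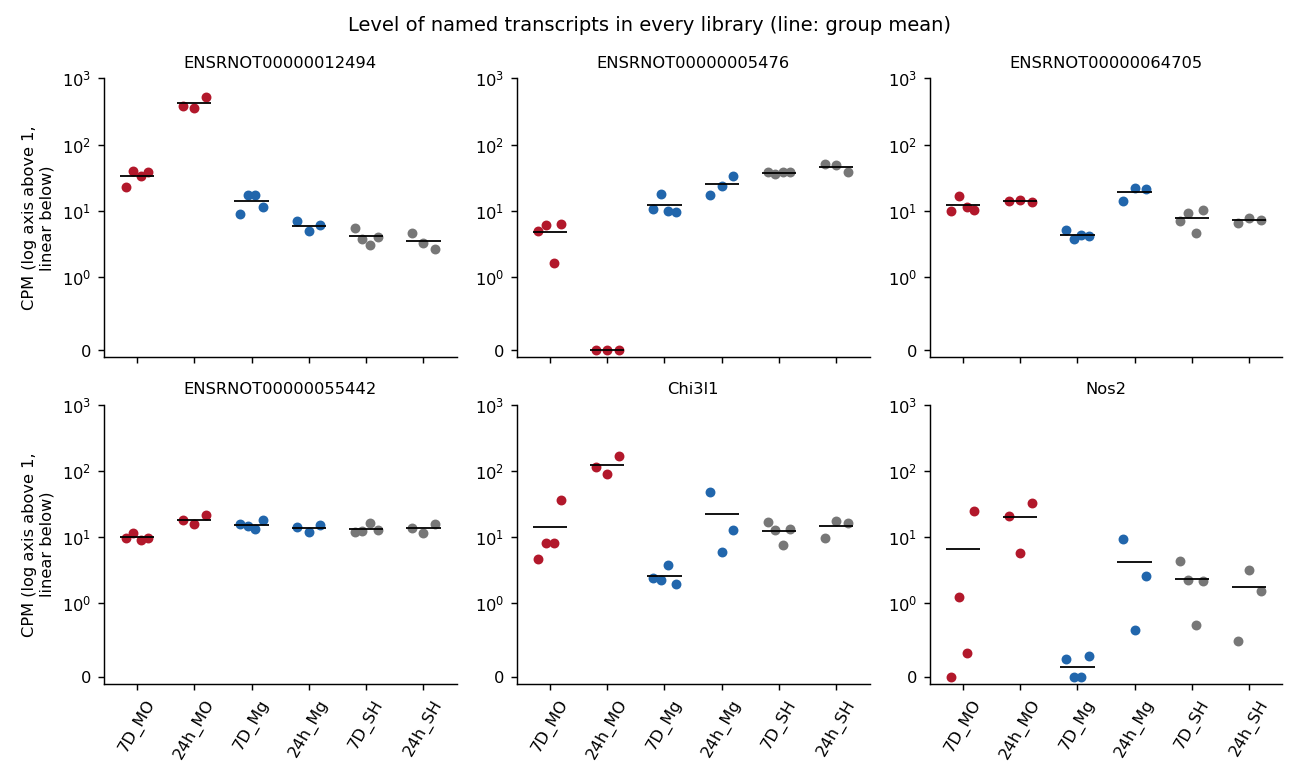
CPM of the 4 transcripts and of Chi3l1 and Nos2 in every library (vertical axes logarithmic above 1 CPM and linear below), with a line at the group mean. ENSRNOT00000012494 and ENSRNOT00000005476 differ between the sets mainly in macrophages and ENSRNOT00000064705 in microglia; Chi3l1 is lower in both cell types in the 7D set.

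A further 61 transcripts were called in opposite directions in the 2 sets. In 34 of them macrophages were higher in the 7D set and microglia in the 24h set, with median log2 differences of 0.56 in the 7D set and -0.65 in the 24h set. The 7D macrophages stood 0.78 to 0.98 above sham over these and the 24h macrophages at -0.59 to -0.05. In the other 27 the median was -0.38 in the 7D set and 0.46 in the 24h set. A macrophage change was called for 24 of the 34 (70.6%, against 12.4% of all tested more positive). It was called for 22 of the 27 (81.5%, against 12.6% of all tested more negative). A microglia change that gives the interaction was called for 4 of the 34 (11.8%, against 1.71% of all tested more negative). It was called for 5 of the 27 (18.5%, against 0.470% of all tested more positive). Over the 34, microglia stood at 0.07 to 0.25 relative to sham in the 7D set and 0.63 to 0.73 in the 24h set. Over the 27 they stood at 0.07 to 0.29 and -0.11 to -0.08. These are again transcripts chosen on the same contrast.

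The 16 transcripts whose macrophage excess widened had the largest median microglia change of the classes. Their group means had a median of 36.3 CPM in the 7D macrophages and 21.8 CPM in the 24h macrophages, and of 0.599 CPM in the 7D microglia and 2.36 CPM in the 24h microglia. The median microglia change was -4.96 on the log2 scale, and it was called for 10 of the 16 (1.71% of all tested were more negative). A macrophage change was called for 2 (12.4% of all tested were more positive). The 16 were chosen on an interaction that contains these changes, so nothing is read from the shares. Sham means, which enter the microglia change, had a median of 9.90 CPM in the 7D set and 2.89 CPM in the 24h set. The sham level of these transcripts thus moved as well.

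Near-exclusive transcripts were at 1 CPM or more in every library of 1 cell type and under 0.2 CPM in every library of the other. Of the 14252 tested, 31 were near-exclusive to macrophages and 0 to microglia in the 7D set, and 62 and 20 in the 24h set. Of the macrophage ones, 13 met the rule in both sets, 41.9% of the 7D list and 21.0% of the 24h list. At these depths 0.2 CPM is below the level of 3 counts in each library, so the lower limit marks transcripts with under 3 counts. The rule had to hold in 4 libraries per cell type in the 7D set and in 3 in the 24h set. By number of libraries it is thus stricter in the 7D set, and its part in the smaller numbers there was not tested.

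Chi3l1, the gene of a chitinase-like protein that cells secrete, was called higher in macrophages in both sets and lower in macrophages in the 7D set. It was at 4.71, 8.34, 8.08 and 36.9 CPM in the 7D macrophages and 118, 90.7 and 168 CPM in the 24h macrophages. The 7D microglia held 2.40, 2.28, 3.80 and 1.99 CPM and the 24h microglia 48.9, 5.92 and 13.1 CPM. In both sets the macrophage libraries were above the microglia libraries, by 5.63-fold in the 7D set (edgeR adjusted p = 0.017) and 5.52-fold in the 24h set (edgeR adjusted p = 0.0062), and the interaction was 0.03 ± 0.79 on the log2 scale (SE, edgeR adjusted p = 1.0). Sham libraries held 7.78 to 17.0 CPM in the 7D set and 9.92 to 17.9 CPM in the 24h set. In the 7D set macrophages were not called against sham (log2 difference 0.20, edgeR adjusted p = 0.78). The 7D microglia were called below sham (-2.29, edgeR adjusted p = 0.0087). The macrophage change of -2.88 ± 0.89 was called (edgeR adjusted p = 0.023), and the microglia change of -2.91 ± 0.95 was not (edgeR adjusted p = 0.12). The 7D call ended without 7D macrophage replicate 4 (log2 difference 1.42, edgeR adjusted p = 0.12) and without 7D microglia replicate 4 (2.37, edgeR adjusted p = 0.057). It also ended with limma-voom (2.09, limma-voom adjusted p = 0.11), with a range of 0.00036 to 0.12 over the alternatives. The macrophage change was no longer called without 24h macrophage replicate 3 (edgeR adjusted p = 0.060) or 24h sham replicate 1 (edgeR adjusted p = 0.062). Without both 24h libraries whose label fields disagree, neither the 24h difference (1.93, edgeR adjusted p = 0.094) nor the macrophage change (-2.62, edgeR adjusted p = 0.064) was called. Without 24h microglia replicate 1 the interaction was -1.24 and the microglia change -1.64.

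Nos2, the inducible nitric oxide synthase, was at 0, 1.26, 0.320 and 25.1 CPM in the 7D macrophages and 20.9, 5.83 and 33.3 CPM in the 24h macrophages, and at 0 to 0.284 CPM in the 7D microglia and 0.634 to 9.31 CPM in the 24h microglia. Its interaction of 3.26 ± 2.08 was not called (SE, log2, edgeR adjusted p = 0.31) and rested on 7D macrophage replicate 4, being -0.28 without it. Sham libraries held 0.705 to 4.33 CPM in the 7D set and 0.495 to 3.25 CPM in the 24h set. The 7D difference of 5.51 was called (edgeR adjusted p = 0.025), as in 23 of 33 alternatives. Without 7D macrophage replicate 4 it was 1.91 (edgeR adjusted p = 0.41). Neither the macrophage change of -1.96 (edgeR adjusted p = 0.47) nor the microglia change of -5.23 (edgeR adjusted p = 0.25) was called. Without that replicate the macrophage change was called (-5.48, edgeR adjusted p = 0.01).

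The transcripts of each class differed in level and length, which the calls did not use directly. The shrunk transcripts had a median length of 2282 nt and a median mean log2 CPM of 5.02, against 2050 nt and 4.04 over all tested. Kept transcripts with macrophages higher were shorter and less abundant, at 1634 nt and 3.56, and kept ones with microglia higher were longer, at 3030 nt and 5.26. The share of shrunk transcripts was 25.3%, 18.8% and 9.30% in the most abundant, middle and least abundant of 3 equal parts of the transcripts. Kept transcripts did not follow level in this way, at 8.08%, 5.58% and 7.45%. Counting precision also rises with level, and its part in these shares was not tested. Mean fragment lengths, derived from the effective lengths of the transcripts, were 178 to 193 nt in the 7D libraries and 157 to 171 nt in the 24h libraries, and its part in the shares by length was not tested.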

How the data were processed

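Poly-A RNA of sorted cells was made into strand-specific libraries, per the labels' protocols. Per the submitters' processing notes, the tools were RSEM, TopHat2 and bcl2fastq and the genome build was rn5. Versions and annotation are not given in the sources used here. The deposited files hold RSEM expected counts per transcript, 1 library per file, where RSEM shares out reads between isoforms and near-identical copies, so part of a transcript's change can lie in how reads were shared out. Between 22.2% and 24.1% of detected transcripts had a count that was not whole (tolerance 0.001). The deposited FPKM column was read only for the lines Chi3l1 and Nos2, which carry 2 extra fields. The value under FPKM was taken as their expected count, on the assumption that the extra fields displaced it. All values given for Chi3l1 and Nos2 rest on this reading, which could not be checked.

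Expected counts were rounded and fitted in R 4.3.3 by the quasi-likelihood method of edgeR 4.0.16 (TMM factors, filterByExpr with minimum count 10 and total 15, 1 term per group, all 21 libraries); Chi3l1 and Nos2 were added to the fit. Standard errors are the absolute log2 value over the square root of F. A transcript was shrunk if its 24h difference was called, the interaction was called against it and the 7D difference was smaller; kept if called alike in both sets with no interaction call; widened if called alike with an interaction of that sign; appeared if called in the 7D set alone with an interaction of that sign. The remaining 2861 transcripts with a call in either set were undecided, and 7635 had none. For each class and direction, transcripts were named by largest interaction, if they reached 3 in mean log2 CPM and the cell types did not overlap where the class needs a call; without gene names 4 are shown. Members and lists were chosen with earlier results of these data known; the gene lists could not be applied. Limits of 3 counts cover counting error only. Replicates of a group differed beyond sampling noise (chi-square over degrees of freedom 5.68 to 65.4 in 27 pairs). Deviations of same-numbered macrophages and microglia correlated at 0.214 to 0.278 in the 7D set (4 pairs) and 0.098 to 0.161 in the 24h set (3 pairs), a pairing taken from the data; the block is an alternative. Others were DESeq2 1.42.0, limma-voom (limma 3.58.1), RLE and upper-quartile factors, filters, and leaving out libraries. The fit was also run on simulated counts drawn independently for each library. Same-numbered macrophage and microglia libraries here deviated together, so that run does not vouch for the p-values.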

Additional observations from a re-analysis of the deposited data

Results flagged for a closer look

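All 4 transcripts shown by identifier had a macrophage-microglia difference that differed between the sets in the test of the interaction, and this is how they were chosen. The log2 values were -4.85 for ENSRNOT00000012494, 1.90 for ENSRNOT00000064705 and -1.04 for ENSRNOT00000055442. For ENSRNOT00000005476 the fitted 9.75 depends on the prior count, since the 24h macrophages were at 0.

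In 21 groups of 4 libraries looked at, 4 had 1 library far from the other 3, where chance flags about 1 in 20. For 7D macrophages this was replicate 4 in both named genes, with Chi3l1 at 36.9 CPM against 4.71 to 8.34 CPM in the others and Nos2 at 25.1 CPM against 0 to 1.26 CPM. ENSRNOT00000005476 was at 18.0 CPM in 7D microglia replicate 2 against 9.53 to 10.6 CPM in the others. ENSRNOT00000055442 was at 16.3 CPM in 7D sham replicate 3 against 12.2 to 12.9 CPM.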

How the results depend on the processing

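Across 33 alternatives at most, the counts of calls and classes stayed within 1.5 times their value in 139 of 184 comparisons apart from leaving out single libraries; where they did not, the cause was not tested. DESeq2 called 206 more positive and 484 more negative microglia changes. Without a filter on low counts 48 transcripts appeared with microglia higher. Without both 24h libraries whose label fields disagree, interaction calls were 1008 more positive and 626 more negative, 1989 transcripts were higher in 24h microglia, 554 and 936 had shrunk (macrophages and microglia higher) and 42 had appeared with microglia higher. With those 2 libraries exchanged, calls were 0 for the interaction, the 24h difference and every class, 226 and 138 for the 7D difference (higher in macrophages and in microglia), 12 and 6 for the macrophage change and 15 and 71 for the microglia change (more positive and more negative). Signs then turned for ENSRNOT00000012494 (interaction 0.81, microglia change -3.91), for ENSRNOT00000005476 (interaction -1.06, macrophage change -0.95, microglia change 0.11), and for the 24h difference of ENSRNOT00000064705 (0.02), Chi3l1 (-0.01) and Nos2 (-0.56).

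The replicate block on all 21 libraries gave 135 more positive microglia changes. On the 14 libraries it gave 2123 more negative interactions, 2025 and 1735 transcripts higher in 7D macrophages and 7D microglia, 1688 shrunk with macrophages higher, 539 kept with microglia higher, and 118 and 252 that appeared with macrophages and microglia higher. The block changed no other count by over 1.5 times. The Chi3l1 interaction was -0.47 and -0.55 with these blocks and -0.85 with limma-voom.

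Requiring at least 2-fold differences left 384 and 886 shrunk, 386 and 51 kept, and 22 and 4 appeared, each with macrophages and then microglia higher. At an adjusted p under 0.01 these were 557 and 928, 432 and 99, and 18 and 23. With all tested transcripts weighted by their 24h difference, the position of 7D macrophages was 0.42.

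Leaving out each library in turn gave 1187 to 1972 more positive and 815 to 1419 more negative interactions, 916 to 1499 and 436 to 1226 transcripts higher in 7D macrophages and 7D microglia, and 2494 to 3085 and 2349 to 3562 higher in 24h macrophages and 24h microglia. Macrophage changes were 1446 to 2324 more positive and 1382 to 1837 more negative, and microglia changes 42 to 310 and 156 to 338. Shrunk transcripts were 713 to 1204 and 1102 to 1795, kept ones 562 to 831 and 190 to 450, and appeared ones 28 to 68 and 38 to 146. Positions were 0.33 to 0.41 for 7D macrophages and 0.02 to 0.10 for 7D microglia. The Chi3l1 interaction ranged over -1.24 to 0.48 and that of Nos2 over -0.28 to 3.91.

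The 24h libraries are shallower than the 7D libraries, and transcripts under 3 counts per library cannot be told from absent ones.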
